A study of Drosophila melanogaster with 2 samples.

Results

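Chromosome 4 of Drosophila melanogaster carried 830 of the 30000 genomic regions listed for the tagged protein CG11723 in chromatin immunoprecipitation followed by sequencing (ChIP-seq). Members were all regions with a position on chromosome 4 in the list called on both replicates pooled, on the dm6 genome build. Of these, 118 were also among the 3869 regions of the final list, set by the irreproducible discovery rate (IDR) over both replicates. They are called IDR regions below. The final list was the 3869 regions of highest signal in the pooled list, so an IDR region need not rank alike in both replicates. A further 684 regions of chromosome 4 overlapped no IDR region and are called lower-ranked. The last 28 were outside the IDR list but overlapped a region in it. The immunoprecipitated material came from mixed-sex embryos aged 0 to 16 h of a transgenic line that carries CG11723 with GFP at its C-terminus. Chromatin was sonicated to 200 to 800 bp and precipitated with an antibody against GFP. Both samples, labelled biological replicates 1 and 3, belong to 1 group, and both carry the transgene. The promoter that drives the transgene is not given in the labels, whole embryos mix all cell types, and no input, untagged or other control sample was analysed here.

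Chromosome 4, the small "dot" chromosome, is an autosome that is largely packaged as heterochromatin, with HP1a and methylated histone H3 lysine 9 along most of its length. The protein POF binds it along its genes, and many of these genes are expressed in spite of that packaging. Its gene-bearing arm is rich in remnants of transposable elements, above all INE-1 and the P-like DNA transposon 1360. CG11723 itself is an uncharacterised gene on arm 2L, and no region of the pooled list lay within 500 bp of its transcription start site (TSS).

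The windows reaching 50 bp to either side of summits that carried the results are given 5′ to 3′ on the + strand of dm6, from the RefSeq assembly (Release 6). The window of highest signal lay 95 bp upstream of Gyf, and its capital marks the summit base.
Gyf promoter (chr4:867070-867170): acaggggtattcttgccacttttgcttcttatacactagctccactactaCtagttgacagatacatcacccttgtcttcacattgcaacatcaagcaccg
6 IDR summits held the 8-base DNA replication-related element (DRE), TATCGATA, which is its own reverse complement and binds the promoter factor DREF. All 6 windows are shown, with capitals marking the DRE.
MED26 promoter (chr4:787594-787694): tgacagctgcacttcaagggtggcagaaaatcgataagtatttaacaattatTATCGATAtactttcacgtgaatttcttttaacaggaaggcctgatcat
Kif3C intron, in an INE-1 copy (chr4:1148132-1148232): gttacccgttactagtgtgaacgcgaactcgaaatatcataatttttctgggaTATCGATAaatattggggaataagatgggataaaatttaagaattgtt
Taf3 promoter (chr4:466809-466909): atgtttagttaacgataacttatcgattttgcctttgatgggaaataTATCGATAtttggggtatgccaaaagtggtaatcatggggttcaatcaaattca
Upstream of ey (chr4:696872-696972): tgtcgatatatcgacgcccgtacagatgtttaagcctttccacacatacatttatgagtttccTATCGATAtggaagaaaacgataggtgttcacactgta
PMCA promoter (chr4:358594-358694): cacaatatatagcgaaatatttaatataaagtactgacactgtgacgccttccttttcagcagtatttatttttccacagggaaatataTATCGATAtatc
Cadps, a start site inside the gene (chr4:1231824-1231924): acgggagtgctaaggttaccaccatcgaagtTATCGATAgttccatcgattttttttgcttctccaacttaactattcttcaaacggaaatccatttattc
The last pair shows a stretch shared by summits far apart on the chromosome, with capitals marking the longest identical run, 24 bp.
lncRNA:CR46488 promoter, in a 1360 copy (chr4:181797-181897): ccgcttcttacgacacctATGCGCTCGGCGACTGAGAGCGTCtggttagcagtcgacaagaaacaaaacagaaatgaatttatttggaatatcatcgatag
3′ end of Gyf, in no annotated element (chr4:853469-853569): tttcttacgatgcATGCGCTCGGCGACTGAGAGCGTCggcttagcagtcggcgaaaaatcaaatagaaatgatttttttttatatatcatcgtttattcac

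IDR regions were denser on chromosome 4 than on any other arm. The 118 regions amounted to 87.5 per Mb of its 1.35 Mb, against 28.3 per Mb over the 5 other arms (3.09 times as many), where single arms ranged between 26.6 and 31.1. All regions of the pooled list stood at 616 per Mb on chromosome 4 and at 220 per Mb on the 5 other arms, a ratio of 2.80. Protein-coding genes went the other way, with 59.3 per Mb on chromosome 4 and 105 per Mb on the other arms. Merging overlapping regions left 98 IDR blocks on chromosome 4, or 72.7 per Mb, against 26.5 per Mb elsewhere, a ratio of 2.74. IDR regions covered 2.98% of the bases of chromosome 4 and 0.937% of those of the other arms.

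The share of listed regions that reached the IDR list was close to that elsewhere in the pooled list, but not in replicate 3 alone. The IDR share was 14.2% of 830 regions (exact binomial 95% interval, 11.9 to 16.8), against 12.9% of 29169 on the 5 other arms (12.5 to 13.2) and 12.9% of the whole pooled list. Taking instead the 3869 strongest regions of a replicate's own list, the share was 14.1% of the regions of replicate 1 on chromosome 4 and 12.9% on the other arms. In replicate 3 it was 21.0% on chromosome 4 (16.9 to 25.6) and 12.8% on the other arms (12.4 to 13.2). Intervals cover counting error only, and neighbouring regions are not independent.

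Both replicates had a higher density on chromosome 4 than on the other arms, and the size differed between them. In each replicate's own list, the 3869 regions of highest signal were taken as its top. The top of replicate 1 held 140 regions of chromosome 4, 104 per Mb and 3.69 times the density on the other arms. The top of replicate 3 held 76 regions, 56.4 per Mb and 1.97 times the density on the other arms. In the full lists of 30000 regions, replicate 1 had 995 regions on chromosome 4 (3.37 times the density elsewhere) and replicate 3 had 362 (1.20 times). What sets the replicates apart was not tested.

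**Figure D1:**
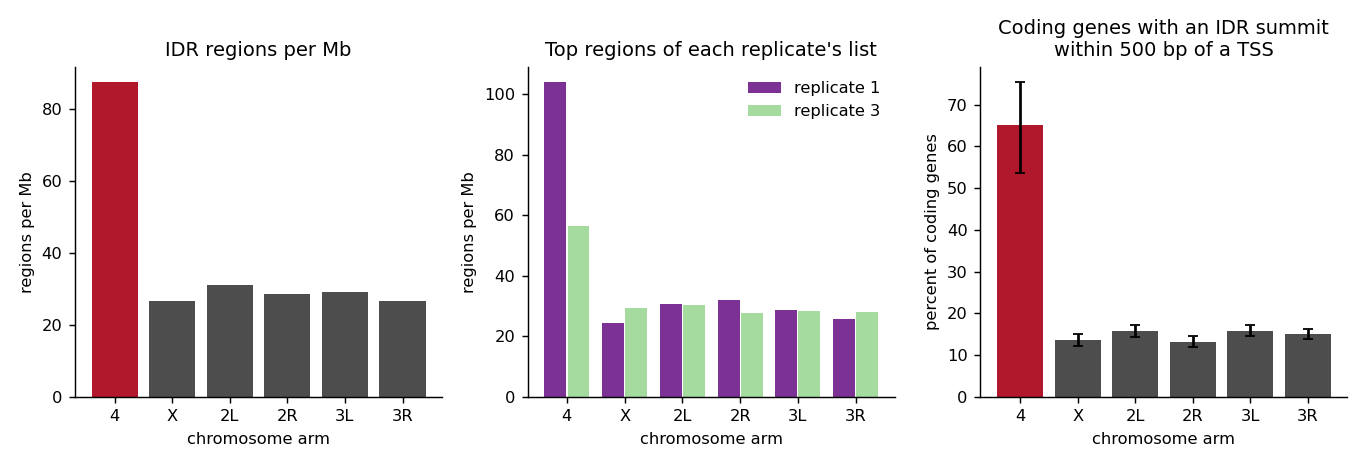
Left, IDR regions per Mb on each chromosome arm; centre, regions per Mb among the 3869 regions of highest signal in each replicate's own list; right, percent of protein-coding genes with an IDR summit at most 500 bp away from a TSS, with exact binomial 95% intervals. Chromosome 4 stands highest in each panel, and its bar in the centre panel is 104 per Mb in replicate 1 and 56.4 per Mb in replicate 3.

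In the pooled list, the share from chromosome 4 was largest among the strongest regions. Signal here is the peak caller's signal value in the deposited list. By signal, 7 of the 100 strongest regions of the series lay on chromosome 4 (95% interval of the share, 2.86% to 13.9%). The chromosome makes up 1.01% of the length of the 6 arms. It held 24 of the strongest 500 regions (interval, 3.10% to 7.06%) and 20 of the next 500 (2.46% to 6.11%). The share was 2.80% among ranks 1001 to 2000 and 2.46% among ranks 2001 to 3869. In the lower ranks it stayed between 2.59% and 2.88%. The replicates differed among the 100 strongest regions, of which chromosome 4 held 12 in replicate 1 but 1 in replicate 3. The interval in replicate 3 was 0.0253% to 5.45%. Of the 500 strongest, it held 31 in replicate 1 (6.2%) and 17 in replicate 3 (3.4%). Of the 1000 strongest, it held 58 in replicate 1 (5.8%) and 28 in replicate 3 (2.8%). For the 500 and the 1000 strongest, each replicate's share was above that in its full list, 3.32% in replicate 1 and 1.21% in replicate 3. The median signal of IDR regions was 177 on chromosome 4 (quartiles 120 and 276), against 143 on the 5 other arms (108 and 217), so the middle ranges overlapped widely. The scale of the signal is not stated, and the values serve only to order regions within a list.

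The last 3 regions of chromosome 4 inside the IDR list were a coding exon of RhoGAP102A (signal 89.8, rank 3801), an intron of CG32017 (89.4, rank 3829) and an INE-1 copy in an intron of ci (88.9, rank 3862). The first 3 outside began with an intron shared by CG32017 and Kif3C (88.4, rank 3888). Next came a summit 153 bp past the start of a non-coding RNA model inside the microRNA gene mir-954 (87.4, rank 3936). The last was at a start site of Mitf (86.6, rank 3988). Those at CG32017 and mir-954 overlapped an IDR region, and that at Mitf overlapped none.

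IDR regions were spread along the chromosome up to Cadps, its last coding gene. Cut into stretches of 100 kb, the first 13 stretches held between 4 and 14 IDR regions each, with the most, 14, in the first. The last listed region ended 75.2 kb before the end of the chromosome, and 97.1% of that remainder was annotated as transposable elements. No pooled region lay there, and only 1 region of replicate 1 lay past 1300 kb. Whether reads from such repeats could be placed was not tested, since the treatment of reads that match several places is not given in the sources used here.

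On chromosome 4, IDR regions lay mostly at promoters. Of the 118, 80 (67.8%, 58.6 to 76.1) had their summit within 500 bp of an annotated TSS, against 49.9% (48.3 to 51.5) on the 5 other arms. Introns held 14 (11.9%, 6.64 to 19.1), against 34.6% on the other arms. A further 15 (12.7%) were intergenic, 5 were in non-coding parts of exons and 4 (3.39%) in coding exons, where the other arms had 0.293%. By base, 10.7% of chromosome 4 lies within 500 bp of a TSS, and 42.6% is intron. In the top of replicate 1, 89 of 140 regions were at promoters (63.6%), and in the top of replicate 3 it was 61 of 76 (80.3%). Introns held 19 regions of the top of replicate 1 and 1 of that of replicate 3.

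Promoter regions were also the stronger ones. Their median signal was 205 (quartiles 136 and 361), against 152 for intergenic and 106 for intronic IDR regions of chromosome 4. Of 72 IDR summits at the start of a protein-coding gene, 57 (79.2%, 68.0 to 87.8) lay upstream of it, with a median position of -94.5 bp, negative values lying upstream. On the 5 other arms 81.3% were upstream (79.4 to 83.1), with a median of -102 bp. The upstream placement on chromosome 4 was thus within counting error of that elsewhere. Among lower-ranked regions of chromosome 4 at such starts, 28 of 50 (56.0%, 41.3 to 70.0) lay upstream.

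The lower-ranked regions of chromosome 4 had another makeup, with many in coding exons. Of 684, 208 (30.4%, 27.0 to 34.0) had their summit in a coding exon outside promoters, against 3.03% (2.82 to 3.25) of lower-ranked regions on the 5 other arms. Coding exons outside promoters make up 18.9% of the bases of chromosome 4 and 13.8% of those of the 5 other arms. Promoters held 68 of the 684 (9.94%), against 21.1% on the other arms. Both replicates had this: coding exons held 24.9% of the regions of chromosome 4 in the full list of replicate 1 and 21.8% in that of replicate 3, against 2.80% and 7.56% of the regions of the other arms in the same lists. These exon regions ranked below the IDR list by definition, with a median signal of 27.0 and a median rank of 17859 of 30000. The genes with most of them were bt, whose product projectin is a giant muscle protein (12 regions over 52.1 kb), unc-13, which primes synaptic vesicles (9 regions), and apolpp, the precursor of the main lipid carrier of the haemolymph (9 regions). Coding exons outside promoters had a GC content of 41.6% on chromosome 4, above its introns (32.6%). They had 53.6% on the other arms, against 39.8% in introns there.

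**Figure D2:**
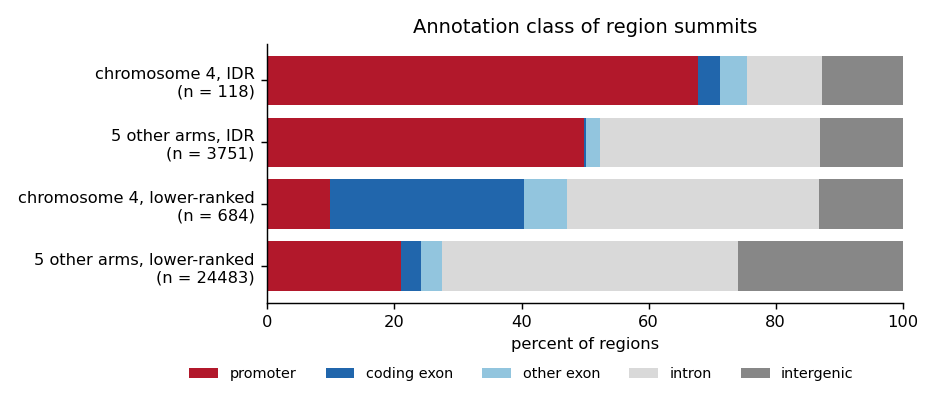
Share of regions by the annotation at their summit, for IDR and lower-ranked regions of chromosome 4 and of the 5 other arms; a promoter is within 500 bp of a TSS and takes precedence over the other classes. Promoters fill 67.8% of the chromosome 4 IDR bar, and coding exons 30.4% of its lower-ranked bar.

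Most protein-coding genes of chromosome 4 had the summit of an IDR region close to a start site, that is, at most 500 bp away. It was 52 of 80 genes (65.0%, 53.5 to 75.3), against 2040 of 13865 (14.7%, 14.1 to 15.3) on the 5 other arms and 15.0% of the coding genes of all 6 arms. Single arms other than chromosome 4 lay between 13.1% and 15.8%. With the top of replicate 1 alone the count was 54 genes (67.5%) against 14.0% on the other arms, and with that of replicate 3 alone 42 genes (52.5%) against 17.4%. Any region of the pooled list lay at the start of 72 genes (90.0%), against 36.9% of genes on the other arms. Of the 52 genes, 29 had 1 IDR region, 18 had 2 and 5 had 3, and 8 of the 72 regions involved served more than 1 coding gene, as at shared promoters of divergent genes. Of the 28 genes without an IDR region at a start, 20 had a weaker region there, 8 had none, and 7 had an IDR region inside the gene.

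Among 14 genes of translation, mitochondria and general cell functions, 12 had an IDR region at a start. Gyf, whose product takes part in translational repression, had the strongest region of the chromosome, with a signal of 1087. It ranked 8 in the pooled list, 5 in replicate 1 and 44 in replicate 3. Arl4, a small GTPase, had 614 (rank 44 in replicate 1 and 262 in replicate 3), and RpS3A, a protein of the small ribosomal subunit, had 580 (ranks 53 and 234). All 3 ranked among the strongest 300 regions of both replicates. The 2 start sites of gw, a core factor of microRNA silencing, held 3 IDR regions between them, the strongest at 430. A region at 420 lay between Slip1, a binding partner of the Slowpoke potassium channel, and the divergent gene CG46466. Rad23, a carrier of ubiquitylated proteins, had 389. ATPsynbeta, a subunit of the mitochondrial ATP synthase, shared a region at 227 with CG11076. ND-49, a subunit of respiratory complex I, had 202, the GTPase gene Arf4 198, the lipid kinase PIP4K 176, the translation initiation factor eIF4G1 168 and the kinase Asator 149. The genes without an IDR region were Tdg, a DNA glycosylase, and Pur-alpha, a nucleic acid binding protein, which shared a region at 78.9 that had no partner in replicate 3.

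Among 11 signalling genes, 9 had an IDR region at a start. Crk, an adaptor protein of receptor signalling, had a signal of 606 and ranked 75 in replicate 1 and 193 in replicate 3. Zyx, a focal adhesion protein, shared its region with apolpp at 556 (ranks 78 and 260). The semaphorin receptors PlexB and PlexA had 542 (ranks 81 and 295) and 521 (ranks 194 and 158). PlexA was the only one of these 4 to rank higher in replicate 3 than in replicate 1. The receptor tyrosine kinase Eph had 409, and the kinase Dyrk3 408, in a region that it shares with Cadps. The TGF-beta family ligands myo and mav had 215 and 156. Both were weak in replicate 3, where the region at myo ranked 10477 and the region at mav had no partner. The summit at mav, 103 bp upstream of its start, also lay 8 bp from the start of the microRNA gene mir-954. The kinase CaMKI had 184. Ephrin, the ligand of Eph, had only a region of signal 23.3 at its start, and Actbeta, another TGF-beta family ligand, had 37.7.

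Among 11 genes of neural, muscle and transport functions, 8 had an IDR region at a start. They were apolpp (556), Ank, an adaptor between membrane proteins and the cytoskeleton (448), Cadps, a factor of dense-core vesicle release (408), mGluR, a glutamate receptor (266), Syt7, a calcium sensor of exocytosis (221), unc-13 (rank 1132 of the pooled list), PMCA, a calcium pump of the plasma membrane (117), and the glutamate receptor Ekar (111). The regions at Syt7, PMCA and Ekar ranked 436, 1316 and 1843 in replicate 1 but 6403, 5876 and 10992 in replicate 3. The GABA transporter Gat had a region at 26.6 and bt a region at 64.5, both below the IDR list. Kif3C, a kinesin, had no pooled region at its start and 2 IDR regions inside the gene.

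Among 16 genes of transcription and chromatin, 10 had an IDR region at a start. The strongest was at pho, which recruits Polycomb complexes, at 570 (rank 86 in replicate 1 and 184 in replicate 3). The other 9 lay between 92.5 and 269. MED26, a subunit of the Mediator complex, had 269, the Sox factor gene Sox102F 241, Mitf, a regulator of lysosome genes, 236, and Hcf, a chromatin cofactor, 218. Lgs, a cofactor of Wnt signalling, had 197, Taf3, a subunit of TFIID, 128, ci, the effector of Hedgehog signalling, 126, the homeodomain factor gene onecut 109, and pan, the TCF factor of Wnt signalling, 92.5. The region at ci ranked 8535 in replicate 3, and that at pan had no partner there. The rest of the list had no IDR region at a start. The Pax6 genes toy and ey had 80.2 and 32.0, zfh2, of the zinc finger homeodomain class, had 61.0, the Pax gene sv 55.3, dati 50.5, and the forkhead gene fd102C had no pooled region at its start. An IDR region lay 767 bp upstream of the nearest start of ey (signal 126), between ey and the divergent gene myo. For zfh2, one lay 3920 bp upstream (427).

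The remaining 28 coding genes had an IDR region at a start in 13 cases. Among these were anne (758, rank 24 in replicate 1 and 120 in replicate 3), CaMKII, a kinase of synaptic plasticity (744, rank 30 in replicate 1 and a higher rank than anne in replicate 3), CG32017 (651, ranks 31 and 285), CG31998 (617, ranks 45 and 233), and 4E-T, a partner of the cap-binding protein eIF4E (367, ranks 390 and 459). CaMKII, like gw and MED26, had 3 IDR regions at its starts. The shares of genes with an IDR region were 62.5% for transcription and chromatin (35.4 to 84.8), 85.7% for general functions (57.2 to 98.2), 81.8% for signalling (48.2 to 97.7), 72.7% for neural, muscle and transport (39.0 to 94.0) and 46.4% for the rest (27.5 to 66.1). These intervals overlap, so the lists could not be ranked by share.

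**Figure D3:**
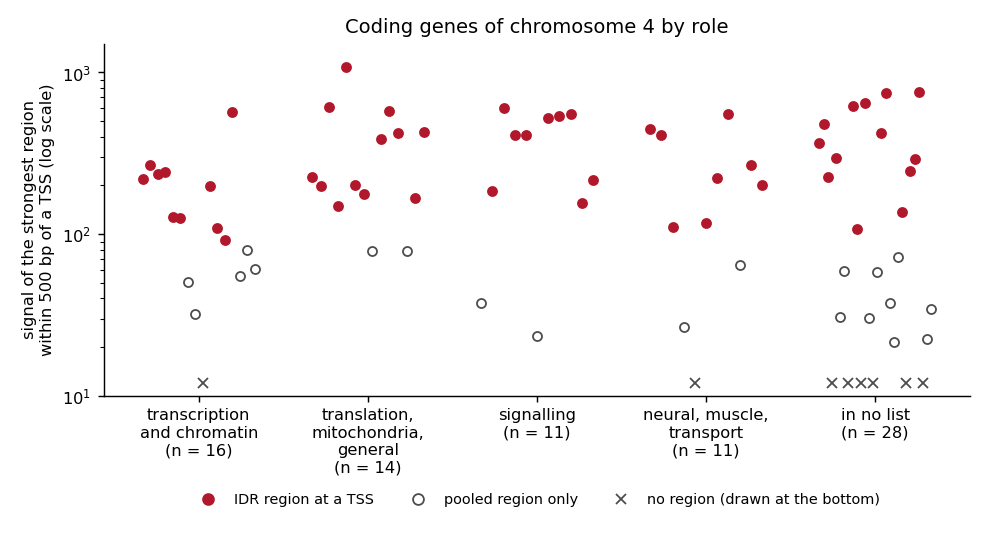
Each symbol is 1 protein-coding gene of chromosome 4, placed by role list (x axis, alphabetical within a list) and by the pooled signal of its strongest region within 500 bp of a TSS (y axis, log scale). Filled points have an IDR region, open points only a weaker region, and crosses none; Gyf is the highest point at 1087, and pho at 570 is the highest of the transcription genes.

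Strong IDR regions away from promoters were few. The strongest was the intergenic region upstream of zfh2 at 427, which ranked 111 in replicate 1 and 1121 in replicate 3. A region 707 bp upstream of pan had 358 (ranks 164 and 1869), and one in an exon of Cals, outside its coding part, had 301 (ranks 706 and 477). The Cals region was the only one of these 3 with a higher rank in replicate 3.

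Transposable elements held 17 of the 118 IDR summits (14.4%, 8.62 to 22.1) and 151 of the 684 lower-ranked summits (22.1%, 19.0 to 25.4). On the 5 other arms it was 1.04% and 2.73%. Elements make up 24.8% of the bases of chromosome 4 and 5.22% of those of the other arms. They make up 20.5% of chromosome 4 up to the end of its last listed region. The share of IDR summits was below the share of all bases, and its interval includes 20.5%. The interval for lower-ranked summits includes both base shares. The median signal of IDR regions in elements was 125, against 186 for the others.

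INE-1 and 1360 held most of the IDR summits in elements. INE-1, with 344 copies over 7.22% of the bases, held 70 lower-ranked summits (10.2%) and 4 IDR summits (3.39%). 1360, with 60 copies over 3.79% of the bases, held 21 lower-ranked summits (3.07%) and 9 IDR summits (7.63%), these 9 in 5 copies. The retrotransposon Cr1a held 3 IDR summits and F held 1. The telomeric element HeT-A, with 3.28% of the bases, held none of the pooled summits. In the top of replicate 1, 11 summits lay in 1360 and 6 in INE-1, and in the top of replicate 3 it was 2 in 1360 and 4 in INE-1. The larger number in 1360 thus held in replicate 1 and not in replicate 3. The strongest 1360 region, 8 bp upstream of lncRNA:CR46488 (signal 286), ranked 261 in replicate 1 and 3003 in replicate 3. The one 311 bp upstream of Syt7 (221) ranked 436 and 6403.

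A few IDR summits shared a short identical run of sequence. Over all pairs of the 118 summit windows that do not overlap, identical runs of 20 bp or more on either strand were found in 2 pairs. A run of 24 bp joined the window at lncRNA:CR46488 in 1360 to the window at the 3′ end of Gyf, printed above, which lies in no annotated element and had a signal of 175. That region ranked 679 in replicate 1 and 18359 in replicate 3. A run of 22 bp on opposite strands joined 2 windows in other 1360 copies, with signals of 160 and 125. Reads from such copies may not be assigned to 1 copy, and the part of this in the signals was not tested.

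At IDR summits, GC content was above its surroundings on chromosome 4 and below them on the other arms. Windows reaching 50 bp to either side of IDR summits had a mean GC content of 37.9% on chromosome 4, and windows of the same width 500 bp away, towards lower coordinates, had 32.0%. The summits were thus 5.90 percentage points higher (SE 0.993, n = 118). On the 5 other arms the summits had 36.1% and the windows beside them 42.6%, a difference of -6.45 (SE 0.242, n = 3751). Chromosome 4 as a whole has a GC content of 35.2% and the other arms 42.2%. The summit was lower in GC than its neighbour in 31 of the 118 regions of chromosome 4 (26.3%), against 66.7% on the other arms. Lower-ranked regions had a difference of 5.96 (SE 0.413) on chromosome 4 and of 0.848 (SE 0.0905) on the other arms, so the opposite signs were seen in IDR regions and not in lower-ranked ones. Promoter IDR regions of chromosome 4 had 4.91 (SE 1.26), the others 7.97 (SE 1.54), and those in elements 11.4 (SE 2.17). In the top of replicate 3 alone the difference on chromosome 4 was 2.59 (SE 1.38), against 5.87 (SE 0.890) in the top of replicate 1. On the other arms it was -9.44 (SE 0.228) in the top of replicate 3 and -3.18 (SE 0.251) in that of replicate 1.

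**Figure D4:**
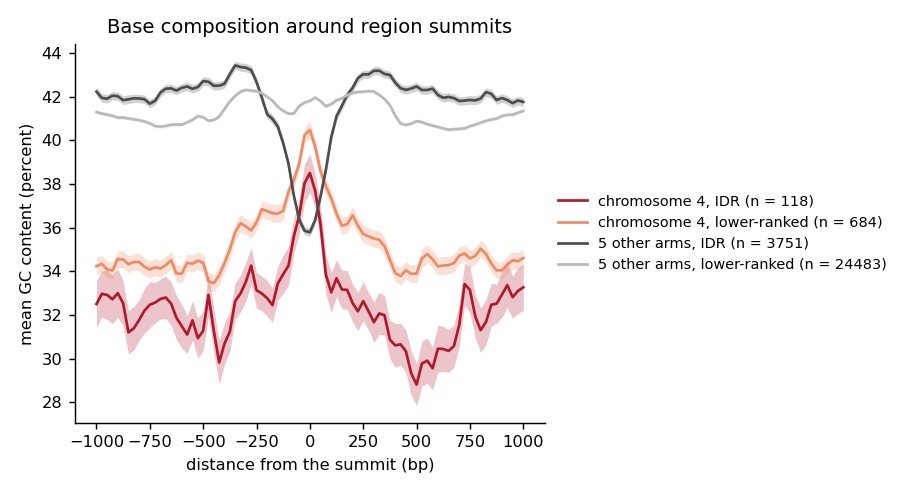
Mean GC content in windows of 51 bp by distance from the summit, for IDR and lower-ranked regions of chromosome 4 and of the 5 other arms; bands are the SE over regions. At the summit the lines of chromosome 4 peak at 38.5% (IDR) and 40.5% (lower-ranked), whereas the IDR line of the other arms dips to 35.8%.

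Of 11 promoter and early embryonic motifs counted on both strands, the DRE and its core were those whose interval at IDR summits of chromosome 4 lay above their share of windows along the chromosome. TATCGATA was found in 6 of 118 IDR summit windows (5.08%, 1.89 to 10.7), in 3 of the windows 500 bp away (2.54%), in 1.90% of lower-ranked summits and in 0.896% of all 13177 windows of the same width that tile the chromosome. On the other arms it was in 1.65% of IDR summits. Its core, TCGATA, which every DRE holds, was in 15 of the 118 (12.7%, 7.29 to 20.1). It was in 9 of the windows 500 bp away, 5.41% of the tiles and 6.21% of IDR summits on the other arms. The intervals in the windows 500 bp away were 0.527 to 7.25 for the DRE and 3.55 to 14.0 for the core. Both overlapped those at the summits, and a share over all promoters of the chromosome was not computed. Of the 6 summits with a DRE printed above, those at MED26, Taf3, PMCA and Cadps were at promoters, and that at MED26 had the highest signal, 269. In the top of replicate 3 alone, 2.63% of the 76 summits on chromosome 4 held the DRE (0.320 to 9.18) and 6.58% its core (2.17 to 14.7), and both intervals include the shares of the tiles.

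The motif CACAGTG was in 1 of the 118 summits (0.847%, up to 4.63%), against 3.07% of IDR summits on the other arms. It was in 0.600% of the tiles of chromosome 4. Its overlapping neighbour, ACAGTGG, was in 2 of the 118 (1.69%, up to 5.99%), against 3.28% on the other arms and 0.789% of the tiles. A difference from the other arms was not detectable with 118 summits. The core promoter element known as Motif 1 and the Zelda site CAGGTAG were in 0 of 118, with exact intervals that reach 3.08%, and in 0.0152% and 0.584% of the tiles. The core of the CTCF site, AGNNGGCGC, was in 1 summit and in 0.357% of the tiles. The site of the Trithorax-like factor, GAGAGAG, was in 2 summits and in 0.911% of the tiles. The E-box CAGCTG was in 6 summits and in 2.22% of the tiles. The core promoter box TATAAA was in 17.8% of the summits, 33.1% of the windows 500 bp away and 21.8% of the tiles. Runs of 12 A or T bases were in 22.9% of the summits, 40.7% of the windows 500 bp away and 31.9% of the tiles. On the other arms both were more frequent at IDR summits than beside them, with 19.2% and 11.6% for TATAAA and 29.1% and 17.4% for the runs. A match to letters is a description and not evidence of binding by the factor.

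The IDR regions of chromosome 4 drew more on replicate 1 than on replicate 3. Of the 118, 73 (61.9%) overlapped the tops of both replicates, 42 (35.6%, 27.0 to 44.9) only that of replicate 1, 3 (2.54%, 0.527 to 7.25) only that of replicate 3, and 0 neither. On the 5 other arms it was 59.9% both, 19.5% only replicate 1, 18.2% only replicate 3 and 2.40% neither. All 118 overlapped a region in the full list of replicate 1 and 109 (92.4%) in that of replicate 3. Each was paired with the overlapping replicate region of nearest summit, and the median rank of these partners was 1090 in replicate 1 and 2228 in replicate 3. On the other arms the medians were 1988 and 2014.5. Of the 109 regions with a partner in both, 92 (84.4%) ranked higher in replicate 1, against 48.7% on the other arms. Over the 109, the ranks in both replicates had a Spearman's rho of 0.579, against 0.428 over 3504 regions of the other arms, given as a description since both replicates contribute to the pooled signal.

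Regions supported by both replicates were mainly promoters. Of the 73, 60 (82.2%) were at promoters and 6 (8.22%) in elements, and their median signal was 237. Of the 42 supported by replicate 1 only, 18 (42.9%) were at promoters and 11 (26.2%) in elements, and their median signal was 119. The gap in median signal is partly built in, since the tops are set by signal and both replicates contribute to the pooled signal. GC content at the summit exceeded that beside it by 4.16 percentage points (SE 1.28) in the 73 and by 9.55 (SE 1.39) in the 42. Read from the replicates' own lists, 71 of the 76 top regions of replicate 3 on chromosome 4 (93.4%) overlapped a top region of replicate 1, and 76 of the 140 of replicate 1 (54.3%) overlapped one of replicate 3. With 50% reciprocal overlap it was 47 of the 76 (61.8%) and 53 of the 140 (37.9%).

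**Figure D5:**
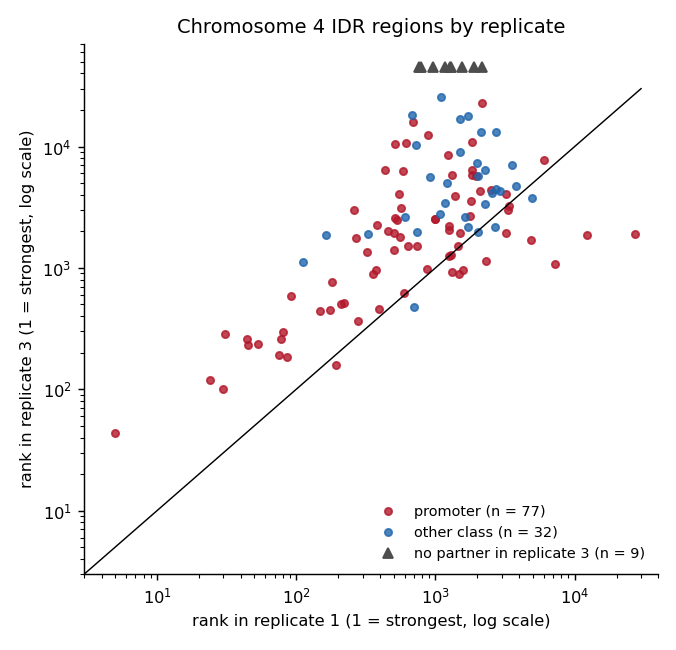
Rank of each IDR region of chromosome 4 in the list of replicate 1 (x axis, log scale) and of replicate 3 (y axis, log scale), by class; the line marks equal ranks, and triangles are regions with no partner in replicate 3. Of the 109 regions with both ranks, 92 lie above the line, where the rank in replicate 1 is the higher, and the 9 triangles have no partner in replicate 3.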

How the data were processed

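The starting point was the deposited narrowPeak region lists, of which each genome build (dm6, dm3) has 4. The submitters' file notes state that calling used a control and was done per replicate and on the pooled replicates, without a threshold, and that IDR over these gave the final list. No source used here names the aligner, the peak caller or the IDR threshold. The signal is a score deposited by the authors, with no stated scale, and it served to rank regions inside each list. The −log10 q column, also deposited, reached its maximum of 3.79 in 103 of the 118 IDR regions of chromosome 4 and was not used. The lists hold no read numbers, so depth per sample is unknown.

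Coordinates are dm6, counted from 1. Gene models were those of Ensembl release 115 (BDGP6.54), leaving out transposable elements, and sequence and element annotation came from RefSeq (Release 6). Summits were classed in the order promoter (within 500 bp of a TSS), coding exon, other exon, intron, intergenic. Overlap meant at least 1 bp. Shares carry exact Clopper-Pearson 95% intervals. No test was run, since there is 1 group and regions are not replicates. Values were computed with Python 3.11.15, pandas 2.3.3, numpy 2.4.6 and scipy 1.17.1, and the functions were checked on simulated data.

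Named genes are CG11723, those nearest to the 30 strongest IDR regions, the 3 regions on either side of the threshold and the members of 4 role lists (52 genes, 2 of them found through RefSeq synonyms). bt, unc-13 and apolpp were singled out for exon regions, and the pair of windows with a shared run was chosen, after their values were seen. The members and lists were chosen with earlier results of these data known.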

Additional observations from a re-analysis of the deposited data

How the results depend on the processing

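No paired analysis was possible because there is 1 group. Of 37 alternative values for the main results, 21 stayed within 1 interval or 1.5 times of the reported value, 16 moved and none reversed. Taking each replicate alone gave 14.1% to 21.0% for the share in the top list, 63.6% to 80.3% for promoters, 12421 to 14139 for the median rank, 2.59 to 5.87 points for GC, 6.58% to 11.4% for the DRE core, 42 to 54 for coding genes and 56.4 to 104 regions per Mb. With only the 1934 strongest IDR regions, of 30000 in the pooled list, 72 of 830 chromosome 4 regions were called (8.67%, 6.85 to 10.8). Of these, 80.6% were promoters. Promoters were 45.8% with a TSS window of 200 bp and 78.0% with 1000 bp. At 50% reciprocal overlap the tops of replicates 1 and 3 held 88.1% and 44.9% of the IDR regions, and with 1000 regions per replicate 55.9% and 33.1%. The GC difference was 8.27 points with the window on the side of higher coordinates. In windows reaching 100 bp to either side the DRE core was in 22.0%. Causes were not tested, except that wider windows hold more motifs by construction. Among 41 values of other motifs, 6 moved. The number of regions (118) and the 2 samples limit precision.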
